A study of Mus musculus with 6 samples.

Results

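The IL-6 family cytokines and their gp130-linked receptor chains were 10 genes, 6 for ligands (Il6, Il11, Lif, Osm, Clcf1 and Ctf1) and 4 for receptor chains (Il6st, Osmr, Lifr and Il6ra). They were taken by symbol, each from the single probe set annotated to that gene alone, so that all 10 were measured among 22180 genes tested and no filter on low values was applied. The samples were mouse prostate epithelial cancer cells from Rb1F/F:Trp53F/F:PB-Cre4 mice, which carry floxed alleles of the retinoblastoma and p53 genes and a Cre recombinase driven by a probasin promoter in prostate epithelium. EV cells (3 arrays) had been infected with an empty lentiviral vector and PIM1 cells (3 arrays) with a lentivirus for the serine/threonine kinase PIM1, and both groups shared the double-knockout background. All were grown in medium with charcoal-stripped serum, insulin, transferrin, selenium, pituitary extract, epidermal growth factor and cholera toxin. The labels give neither the age of the mice nor how many animals, lines or clones the cells came from. The comparison of PIM1 with EV asked how expression differed once PIM1 was introduced. RNA was measured on a whole-transcript mouse array, values are log2 signals, and differences are PIM1 minus EV on that scale. Whether the arrays of a group came from separate cultures is not in the labels. The p-values therefore cover the spread between arrays alone, and that spread may be technical.

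Cytokines of the IL-6 family share gp130, the receptor chain encoded by Il6st. IL-6 binds its own chain, encoded by Il6ra, before it engages gp130, whereas LIF, cardiotrophin-1 and oncostatin M join gp130 to the LIF receptor or the oncostatin M receptor. The assembled receptors activate JAK kinases and the transcription factor STAT3, which induces acute-phase genes and the inhibitor gene Socs3, and IL-6 signalling through STAT3 has long been studied in prostate cancer.

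Pim1 had 2 probe sets, and on the brighter one it was higher on every PIM1 array (6.89 to 7.11) than on any EV array (5.23 to 6.25). The dimmer one read 2.05, 2.27 and 2.64 in EV and 3.06, 3.32 and 2.61 in PIM1, with overlap, and the labels do not say whether either reads the introduced sequence. The lower quartile, the median and the upper quartile of all probe sets lay at 2.34 to 2.40, 3.49 to 3.52 and 5.60 to 5.62 for EV, against 2.23 to 2.24, 3.38 to 3.42 and 5.71 to 5.79 for PIM1. Of the 22180 genes, 27.0% passed adjusted p under 0.05 (limma with Benjamini-Hochberg adjustment). Of these calls 59.6% were higher in PIM1, or 73.5% once the array medians had been set equal. The labelled cell type was checked on 8 measured epithelial markers, of which 3 were lower in PIM1 and 5 were not called. The keratin gene Krt18 fell from 9.14 ± 0.06 to 4.90 ± 0.12 (SD, n = 3), and Epcam, a surface protein of most epithelia, read 2.50 and 2.35, below the array medians. Of 12 fibroblast markers 10 were higher and 1 was lower in PIM1, and their summed log2 signal was 76.7 to 77.3 in EV and 96.1 to 96.7 in PIM1. Of 13 macrophage and leukocyte markers 1 was higher and 1 was lower, with summed signals of 45.1 to 46.1 and 42.5 to 44.7, and the pan-leukocyte gene Ptprc averaged 2.07 and 1.87, below the lower quartile of both groups. Fibroblasts can make IL-6 family cytokines, and the part of fibroblast-marker expression in the differences below was not tested.

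Most of the 10 listed members differed between PIM1 and EV cells. They were chosen with earlier results of these data known, so their counts describe these genes and are no test of the family. Of the 10 genes 8 rose and 2 fell at adjusted p under 0.05, against 16.1% of all genes higher and 10.9% lower. After quantile normalization or cyclic loess 7 of the 8 rises and neither fall passed. Il6 rose 21.2-fold, Osmr rose 4.74-fold, and the other called rises were between 1.39-fold and 2.11-fold. The falls, of Il11 and Osm, were 1.39-fold and 1.28-fold. For all 10 genes the EV and PIM1 arrays were fully separated, 8 with PIM1 higher and 2 with PIM1 lower. Such separation was found for 43.2% of all genes, 22.3% with PIM1 higher and 20.9% with PIM1 lower. Whether more RNA per cell or more cells with that RNA underlies a difference cannot be told apart in bulk samples.

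**Figure D1:**
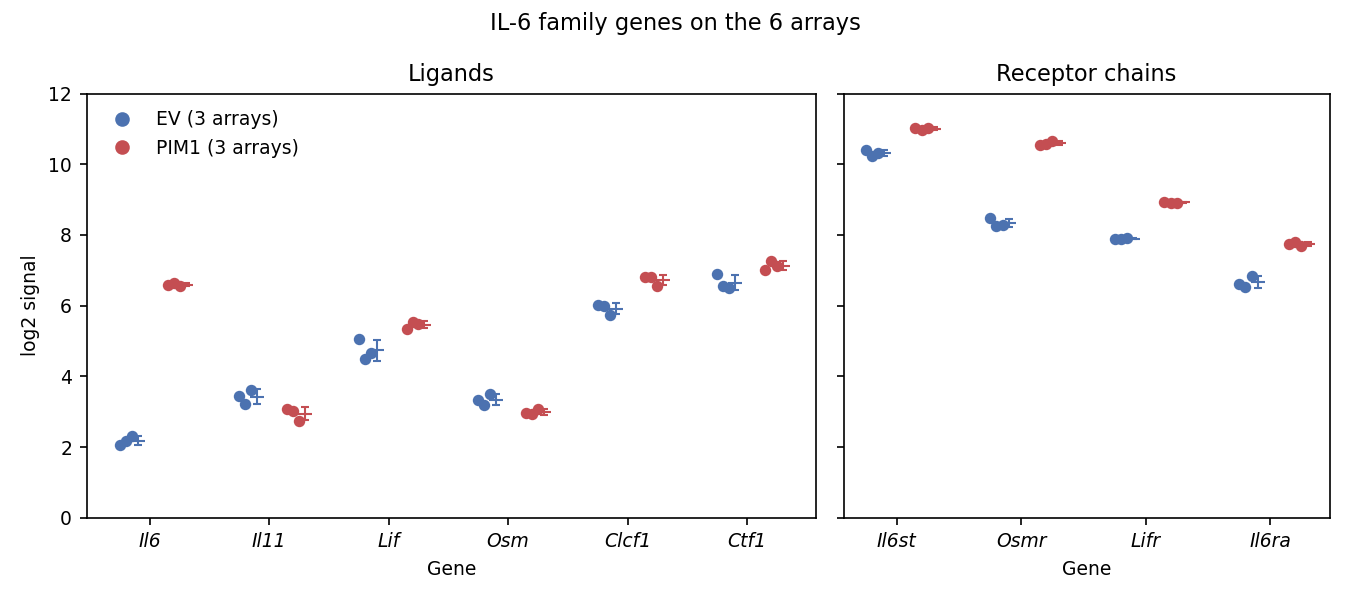
The log2 signal of each ligand gene (left) and receptor chain gene (right) on the 3 EV and 3 PIM1 arrays, 1 point per array, with the mean and SD of each group beside the points. Il6 went from 2.06 to 2.32 on the EV arrays to 6.56 to 6.64 on the PIM1 arrays, and all 4 receptor chain genes were higher on every PIM1 array. Heights of different genes are different probe sets and are not comparable.

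Promoter sequences are shown for Il6 and Osmr, the ligand and the receptor chain with the largest rises, and for Lif and Il11, which share a motif and moved in opposite directions. The RefSeq promoter table used here (GRCm38.p6) was matched for 8 of the 10 genes, all but Osm and Clcf1, and 2 of them (Il11 and Lifr) had a second start. The 250 bases before each start were searched on both strands for the NF-kappaB motif, the C/EBP motif TTNNGNAA, the AP-1 motif TGANTCA, the STAT motif TTCNNNGAA and the cyclic AMP response half-site TGACG, none of which overlapped in these windows. Capitals mark the matches, and each sequence is written on the strand of its gene, ending at the base before the start. Il6 is at chr5:30012864-30013113 (plus strand), Osmr at chr15:6874314-6874563 (minus), Lif at chr11:4257318-4257567 (plus) and the Il11 start shown at chr7:4778142-4778391 (minus).
Il6: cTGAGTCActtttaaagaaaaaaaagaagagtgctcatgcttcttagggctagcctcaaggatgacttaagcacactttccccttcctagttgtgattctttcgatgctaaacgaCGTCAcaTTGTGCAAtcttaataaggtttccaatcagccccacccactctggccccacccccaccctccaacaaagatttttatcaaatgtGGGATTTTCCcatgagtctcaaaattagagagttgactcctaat
Osmr: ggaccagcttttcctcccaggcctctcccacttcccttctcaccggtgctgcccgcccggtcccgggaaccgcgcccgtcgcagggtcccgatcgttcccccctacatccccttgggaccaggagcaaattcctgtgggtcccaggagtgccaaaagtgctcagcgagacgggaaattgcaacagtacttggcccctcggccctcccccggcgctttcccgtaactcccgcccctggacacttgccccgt
Lif: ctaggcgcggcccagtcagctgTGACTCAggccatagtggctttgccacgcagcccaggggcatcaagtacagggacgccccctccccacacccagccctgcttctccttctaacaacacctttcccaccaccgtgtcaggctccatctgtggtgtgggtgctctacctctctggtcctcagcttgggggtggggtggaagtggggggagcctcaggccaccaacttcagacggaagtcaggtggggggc
Il11: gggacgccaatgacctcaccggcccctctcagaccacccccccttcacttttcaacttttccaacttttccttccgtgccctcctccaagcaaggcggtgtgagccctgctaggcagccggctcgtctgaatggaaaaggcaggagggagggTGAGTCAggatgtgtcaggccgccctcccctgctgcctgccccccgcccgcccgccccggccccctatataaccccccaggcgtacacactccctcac

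The Il6 window held 4 of the 5 motifs. Its NF-kappaB match lay 44 to 35 bases before the start, its C/EBP match 128 to 121, its cyclic AMP half-site 135 to 131 and its AP-1 match 249 to 243 bases before. Of 32851 RefSeq promoter windows of this length, 3.90% held the NF-kappaB motif, 36.8% the C/EBP motif, 17.8% the half-site, 6.75% the AP-1 motif and 7.02% the STAT motif. Among the members the NF-kappaB motif was found in Il6 alone. The AP-1 motif was found in Il6, Lif and the Il11 start shown, and the C/EBP motif and the half-site in Il6 and Il6ra. No match in the Osmr window says only that these letters are not in it. The matches are a description of letters and do not show binding.

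Il6, which encodes the founding cytokine of the family, read 2.06, 2.18 and 2.32 in EV, against 6.58, 6.64 and 6.56 in PIM1. The EV values lay below the lower quartile of their arrays and the PIM1 values above the upper quartile, and the nearest arrays of the groups were 4.24 apart. The Il6 difference was 4.41 (standard error 0.10, 95% interval 4.17 to 4.64, adjusted p = 1.60e-07), rank 31 among the rises of all genes. No detection call was used, so the EV signal of Il6 holds an unknown share of background and the fold rests on it. Clcf1, a cytokine that acts through the CNTF receptor, read 6.02, 5.98 and 5.74 in EV and 6.82, 6.80 and 6.56 in PIM1. Replicate 3 was the lowest array of both groups for Clcf1, and the groups stayed apart. The Clcf1 difference was 0.82 (standard error 0.12, adjusted p = 0.00179). Lif, whose product keeps mouse embryonic stem cells undifferentiated, read 5.06, 4.49 and 4.66 in EV and 5.35, 5.55 and 5.47 in PIM1. The first EV array lay closest to the PIM1 arrays, 0.29 below the lowest of them. The Lif difference was 0.72 (standard error 0.15, adjusted p = 0.00955). Ctf1, which encodes cardiotrophin-1, read 6.90, 6.54 and 6.51 in EV and 7.01, 7.26 and 7.11 in PIM1. Here too the first EV array was the highest of its group, 0.10 below the lowest PIM1 array. The Ctf1 difference was 0.47 (standard error 0.14, adjusted p = 0.0334), the smallest rise among the members.

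Il11 and Osm went the other way, at signals near the array medians or below them. Il11, which encodes a cytokine linked to tissue fibrosis, read 3.44, 3.22 and 3.63 in EV and 3.07, 3.03 and 2.75 in PIM1. Its difference was -0.48 (95% interval -0.80 to -0.16, adjusted p = 0.0374). Osm, which encodes oncostatin M, a cytokine made largely by leukocytes, read 3.34, 3.20 and 3.50 in EV and 2.96, 2.94 and 3.07 in PIM1. Its difference was -0.35 (95% interval -0.61 to -0.10, adjusted p = 0.0484). The gaps between the nearest arrays of the groups were 0.15 for Il11 and 0.13 for Osm, and the first quartile and the median of all probe sets were lower on the PIM1 arrays as well.

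The calls of Il11, Osm and Ctf1 were lost in 9 of 13, 11 of 13 and 8 of 14 alternatives, with the direction kept in all alternatives run. Among these losses were fits with 1 array left out or with other scaling. Leaving out 1 array also lowered the calls over all genes, from 5995 to between 4167 and 5369, so a lost call need not mean dependence on that array. After quantile normalization the adjusted p was 0.0965 for Il11, 0.184 for Osm and 0.115 for Ctf1, and after cyclic loess 0.0837, 0.191 and 0.0857. Centring on the array median gave 0.0802 for Il11 and 0.154 for Osm, and a trended and robust variance gave 0.0881 for Osm. Without EV replicate 1 it was 0.0803 for Il11 and 0.0882 for Osm, and without EV replicate 2 it was 0.0889 for Ctf1. Without EV replicate 3 it was 0.0995 for Il11, 0.128 for Osm and 0.0914 for Ctf1. Leaving out PIM1 replicate 1 gave 0.0618, 0.139 and 0.0567 for the same genes, PIM1 replicate 2 gave 0.0776, 0.148 and 0.120, and PIM1 replicate 3 gave 0.114, 0.0680 and 0.0837. Testing every probe set on its own gave Osm 0.0507. Il6, Lif and Clcf1 passed in each of the 14 alternatives run, with an adjusted p of at most 0.0427, that of Lif.

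All 4 receptor chain genes rose. Il6st, which encodes the shared chain gp130, read 10.41, 10.23 and 10.30 in EV, against 11.02, 10.97 and 11.04 in PIM1. This gene was already far above the upper quartile in EV, and its difference was 0.69 (standard error 0.10, adjusted p = 0.00118). Osmr, the chain that gives oncostatin M its own receptor, read 8.48, 8.25 and 8.29 in EV and 10.55, 10.57 and 10.65 in PIM1. The groups were 2.07 apart at their nearest arrays, and the difference was 2.25 (standard error 0.10, 95% interval 2.01 to 2.48, adjusted p = 3.30e-06). Lifr, the LIF receptor chain, read 7.90, 7.88 and 7.91 in EV and 8.93, 8.91 and 8.90 in PIM1. Its SD was 0.012 in EV and 0.015 in PIM1, smaller than the standard error of 0.09 that limma gave its difference. The Lifr difference was 1.02 (95% interval 0.82 to 1.23, adjusted p = 9.36e-05). Il6ra, the chain that binds IL-6, read 6.62, 6.54 and 6.85 in EV and 7.75, 7.79 and 7.70 in PIM1. The Il6ra difference was 1.08 (standard error 0.11, 95% interval 0.82 to 1.33, adjusted p = 2.55e-04). The interval of Osmr did not meet those of the other 3 chains, whereas the intervals of Lifr and Il6ra overlapped over most of their length. The median difference of the 4 receptor chain genes was 1.05 and that of the 6 ligand genes 0.60, against -0.05 for all genes.

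**Figure D2:**
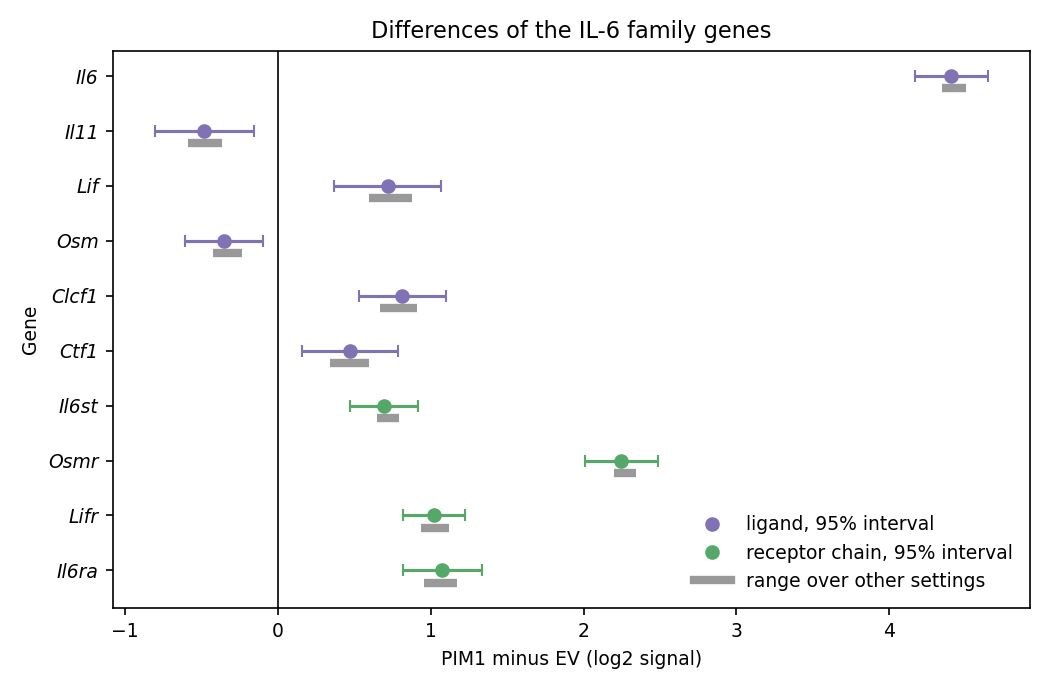
The difference of each member gene, PIM1 minus EV in log2 signal, as a point with its 95% interval from limma, and as a grey bar the range over the 13 or 14 other settings in which it was tested. Il6 (4.41) and Osmr (2.25) stand apart from the other rises (0.47 to 1.08), and the bars of Il11 and Osm stay below 0.

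Set out by receptor complex, the IL-6 receptor had higher signal for the ligand (4.41), its own chain (1.08) and gp130 (0.69). The LIF receptor likewise had higher Lif (0.72), Lifr (1.02) and Il6st. For oncostatin M the receptor chain rose by 2.25, while the ligand gene had a difference of -0.35 that was called in only 2 of 13 alternatives. Clcf1 rose, but Cntfr, the CNTF receptor chain through which it acts, read 4.31, 4.54 and 4.25 in EV and 3.56, 3.67 and 3.79 in PIM1. The Cntfr difference was -0.69 (standard error 0.12, adjusted p = 0.00354), and every PIM1 array lay below every EV array. The IL-11 receptor chain genes were not analysed here.

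Lif and Osm are neighbours on chromosome 11, and Osmr and Lifr are neighbours on chromosome 15, with no other measured gene between them in RefSeq order. Both receptor neighbours rose, whereas Lif rose and Osm had a difference of -0.35, a call lost in 11 of its 13 alternatives. Beside Osm lay Castor1 and Tbc1d10a. Castor1, an arginine sensor gene, was not called (0.30, adjusted p = 0.0709), but passed after median centring (0.0299) and among the brighter genes alone (0.0266). Tbc1d10a, which encodes a GTPase-activating protein, rose by 0.51 (adjusted p = 0.0113, and 0.0524 without PIM1 replicate 1). Beside Lif, the meiotic gene Hormad2 (-0.29, adjusted p = 0.160) and the lipid phosphatase gene Mtmr3 (0.18, adjusted p = 0.192) were not called. Next to Osmr lay Rictor, which encodes a subunit of mTOR complex 2, with a rise of 0.55 (adjusted p = 0.00803). Beyond it Fyb, an adaptor gene of T cells and platelets, rose by 1.54 from 3.01 ± 0.28 to 4.55 ± 0.07 (adjusted p = 1.54e-04). On the side of Lifr, the matrix gene Egflam (-0.23, adjusted p = 0.317) and the neurotrophic factor gene Gdnf (0.27, adjusted p = 0.148) were not called. On chromosome 15 the 4 consecutive measured genes Fyb, Rictor, Osmr and Lifr were called higher in PIM1, a call made for 16.1% of all genes. Osmr and Lifr were members from the start, and genes beyond Fyb were not examined. How often such runs occur among all genes was not counted.

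**Figure D3:**
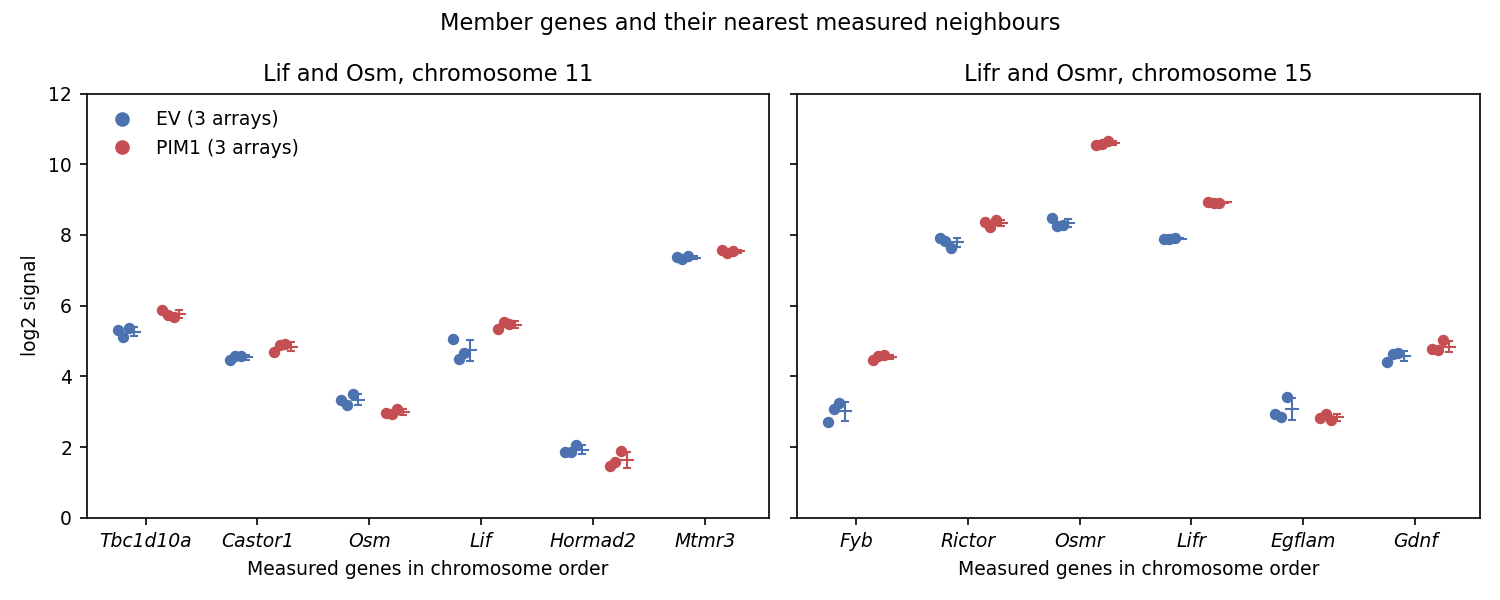
The log2 signal of Osm and Lif (left, chromosome 11) and of Osmr and Lifr (right, chromosome 15) with the 2 nearest measured genes on either side, in chromosome order, 1 point per array with group mean and SD. Osmr and Lifr are higher in PIM1 together with Rictor and Fyb, whereas Lif is higher and the PIM1 points of Osm lie below its EV points.

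Beyond the 10 members, the 70 measured genes of 6 pathway lists were counted, of which 40 were called, against 27.0% of all genes (16.1% higher and 10.9% lower), the same background for each list. The lists too were chosen with earlier results of these data known, so their counts and medians describe the listed genes alone. Of 7 other ligand and receptor genes, listed as gp130-linked, Cntfr fell and 6 were not called, with a median difference of -0.02. This list thus held no larger share of calls than all genes. It includes Il31 and Il31ra, whose products do not use gp130 itself. The median level of the list was 3.22 in EV and 3.20 in PIM1, below the array medians. With no detection call, its genes near background cannot be told from expressed genes that did not change. Il27, a ligand subunit gene, had a difference of -0.51 (adjusted p = 0.0864, or 0.0478 when dim genes were left out), and the receptor genes Il31ra and Il27ra had 0.21 (0.195) and 0.17 (0.422). Of 12 kinase, STAT and adaptor genes 5 rose, 1 fell and 6 were not called, with a median of 0.27. Stat3, the main transcription factor of this pathway, read 8.90, 8.93 and 8.94 in EV, against 10.20, 10.25 and 10.26 in PIM1. The groups lay 1.27 apart and the Stat3 difference was 1.32 (standard error 0.09, adjusted p = 2.47e-05). Of the JAK kinases that gp130 uses, Jak2 rose by 1.55, from 7.68 ± 0.08 to 9.23 ± 0.10 (adjusted p = 2.11e-05). Jak1 and Tyk2 were not called (0.22, adjusted p = 0.124, and 0.21, adjusted p = 0.233). Jak1 passed with a trended and robust variance (0.0182), after median centring (0.0456) and among the brighter genes alone (0.0481). Stat5a, a related transcription factor gene, rose by 2.18 (adjusted p = 4.65e-06). Shc1, an adaptor gene between receptors and RAS, rose by 1.31, whereas Sos1, which encodes a RAS exchange factor and was named after its value was seen, fell by 0.81 (adjusted p = 6.24e-04).

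Of 9 genes for feedback inhibitors and phosphatases 4 rose, 1 fell and 4 were not called, with a median of 0.34. Socs3, whose product binds gp130 and blocks JAK activity, read 5.28, 5.01 and 5.21 in EV and 7.86, 7.83 and 7.59 in PIM1. The groups did not overlap, and the Socs3 difference was 2.59 (standard error 0.12, adjusted p = 3.61e-06), or 6.03-fold. With its probe sets averaged the Socs3 difference was 1.97. Socs2, an inhibitor gene of growth hormone signalling, rose by 1.94 (adjusted p = 2.25e-04), or by 1.32 when its probe sets were averaged. The phosphatase genes Ptpn1 and Ptpn2 rose by 1.16 (adjusted p = 4.25e-04) and 0.49 (0.0269). The call of Ptpn2 was lost under quantile normalization (0.0618) and cyclic loess (0.0519), and also without EV replicate 2 (0.0688), EV replicate 3 (0.0719), PIM1 replicate 2 (0.0817) or PIM1 replicate 3 (0.0811). The member that fell, named after its value was seen, was Ptpn6, a phosphatase gene of blood cells (-0.46, adjusted p = 0.0303). It did not pass after median centring (0.0705) or without EV replicate 1 (0.0626), EV replicate 2 (0.0835), PIM1 replicate 2 (0.112) or PIM1 replicate 3 (0.0865).

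Of 27 acute-phase and STAT3 target genes 17 rose and 10 were not called, with a median of 2.05. The 4 with the smallest p were the acute-phase gene Saa3 (9.46), the metalloreductase gene Steap4 (8.04), the siderophore-binding lipocalin gene Lcn2 (7.52) and the lipopolysaccharide-binding protein gene Lbp (6.54). These 4 read 2.55 to 3.40 in EV, so that their folds rest in part on background. They held ranks 1 to 4 among the rises of all genes, and the list was chosen with earlier results known. The 10 targets not called were Fga (0.06), Fgb (-0.17), Fgg (-0.02), Crp (-0.18), A2m (0.18), Timp1 (0.21), Mcl1 (0.30), Bcl2l1 (0.01), Ccnd1 (-0.07) and Myc (-0.07). Group means of Fga, Fgb, Fgg and Crp were 1.72 to 2.05, below the lower quartile of all probe sets. A2m averaged 2.71 in EV and 2.89 in PIM1, below the array medians, and Bcl2l1 5.60 and 5.61. Group means of Timp1, Mcl1, Ccnd1 and Myc were 8.58 to 9.89, above the upper quartile. Of 13 genes for regulators of Il6 transcription and mRNA stability 10 rose and 3 were not called, with a median of 0.82. Cebpb and Cebpd, which encode transcription factors that bind the C/EBP motif, rose by 2.29 (adjusted p = 3.06e-06) and 2.81 (7.42e-06). Cebpd read 3.87, 4.46 and 4.12 in EV and 6.99, 6.87 and 7.02 in PIM1, with no overlap. Nfkbiz, a nuclear NF-kappaB cofactor needed for Il6 induction in macrophages, rose by 1.65 (adjusted p = 1.42e-05). Zc3h12a, which encodes the ribonuclease that degrades Il6 mRNA, rose as well, by 2.21 from 4.67 ± 0.14 to 6.87 ± 0.11 (adjusted p = 6.08e-06). Cebpb and Cebpd belong to both of these lists, and Socs3 to the targets and the inhibitors.

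Of 5 genes linked to receptor shedding, by which IL-6 receptor chains are cut from the cell surface, 3 rose, 1 fell and 1 was not called, with a median of 0.84. Adam17, the protease that sheds the IL-6 receptor, rose by 0.95 from 7.47 ± 0.09 to 8.42 ± 0.11 (adjusted p = 3.66e-04). Timp3, which encodes an inhibitor of that protease, rose by 1.46 (adjusted p = 1.78e-05). The ADAM17 partner genes Rhbdf2 and Rhbdf1 moved apart, with a rise of 0.84 (adjusted p = 0.00839) and a difference of -0.78 (0.00188). Of the 12 fibroblast markers given above 10 were higher in PIM1 on these same arrays. The part of fibroblast-marker expression in the list counts was not tested.

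**Figure D4:**
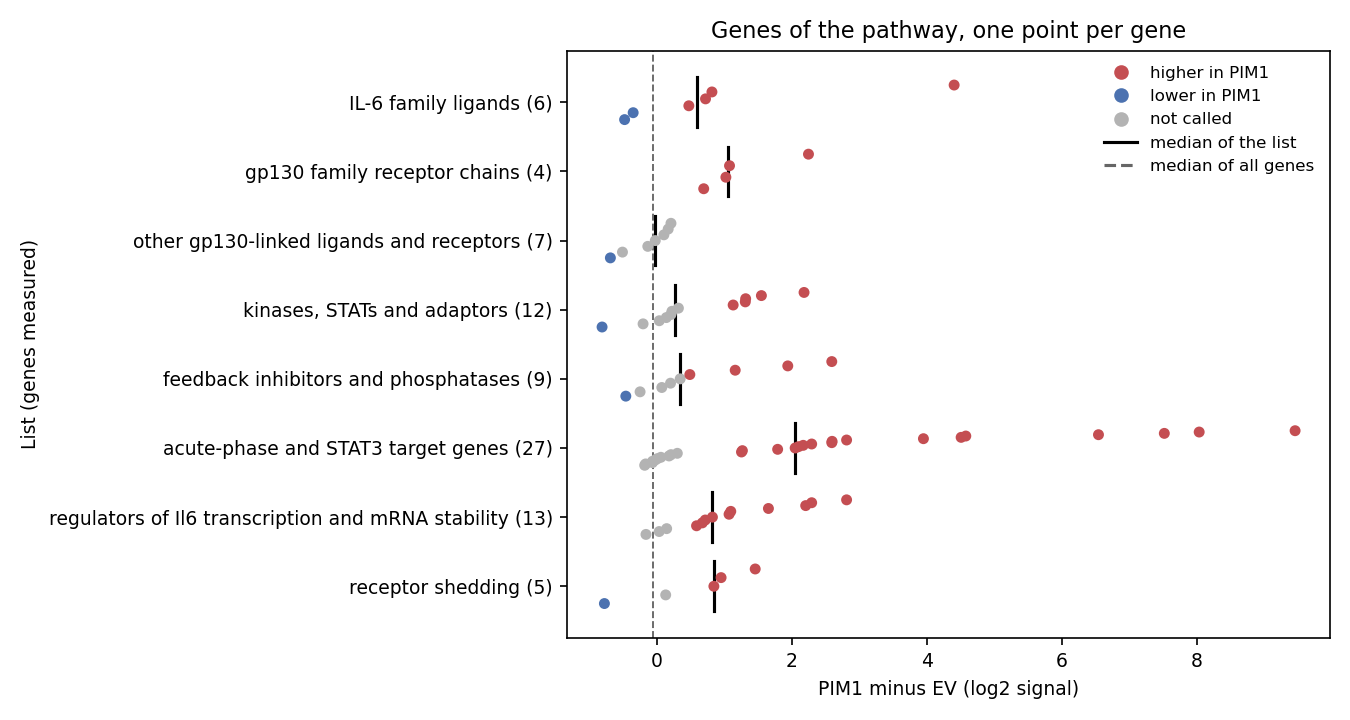
The difference of each measured gene, PIM1 minus EV in log2 signal, for the ligands, the receptor chains and the 6 pathway lists, 1 point per gene coloured by its call, with the list median as a black line and the median of all genes (-0.05) dashed. Targets reach 9.46 with a median of 2.05, whereas the genes listed as other gp130-linked lie around 0 except Cntfr and Il27. The median level of that last list was below the array medians in both groups.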

How the data were processed

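RNA of 3 EV and 3 PIM1 samples was measured on Affymetrix whole-transcript arrays, prepared with the GeneChip WT PLUS kit per the labels' protocols. The authors deposited 1 value per probe set and array, taken as log2 signal from its range, 0.34 to 13.0. The submitters' processing notes name Affymetrix Expression Console. The log base, background correction, summarization and normalization, being not given in the sources used here, could not be checked, and the deposited scale was kept. The number of arrays limits the precision.

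Of 41345 probe sets, 23521 had 1 gene symbol in the platform annotation, 1814 had several and 16010 had none. For 1082 genes with several probe sets the brightest was used, which left 22180 genes, of which 21994 matched RefSeq (GRCm38.p6) by Entrez identifier. That annotation served for names, gene order and promoters. Groups were compared over all genes by a linear model (R 4.3.3, limma 3.58.1, moderated by eBayes, two-sided, Benjamini-Hochberg, threshold 0.05), tested on simulated data. Named genes were all members, the 4 smallest p of each pathway list, Jak1, Jak2, Tyk2, Stat3 and Socs3, 2 measured neighbours on either side of adjacent members, and Pim1. Krt18, Epcam, Ptprc, Sos1, Ptpn6 and the 10 target genes not called were named after their values were seen. The members and lists were chosen with earlier results of these data known. Alternatives were 3 other scalings, another variance model, a brightness filter, other uses of probe sets, a replicate block and leaving out each array.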

Additional observations from a re-analysis of the deposited data

How the results depend on the processing

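The count of 4 called receptor chain genes was the same under all 14 alternatives. No difference of a member or named gene called in either fit changed sign. The 10 target genes not called in the main fit were left out of this check. The count of 6 called ligand genes was 3 after quantile normalization and 3 after cyclic loess, Il6, Lif and Clcf1 each time, and between 3 and 5 when 1 array was left out. Il11 and Osm could not be tested among the brighter genes alone, where 4 of 4 ligand genes passed. The count of 40 pathway genes lay between 37 and 45. The labels state no pairing of the arrays by replicate number. Deviations from the group means correlated at 0.0558, -0.0314 and 0.00875 for same-numbered arrays. The other pairs lay between -0.0632 and 0.0547, the latter for EV replicate 2 with PIM1 replicate 3. Values this small, from 3 arrays a group, cannot settle whether the arrays were paired. With the replicate number as a block 3 ligand genes and 4 receptor chain genes were called, with 5321 genes in all against 5995. In that fit with a replicate block Il11, Osm and Ctf1 had adjusted p of 0.0698, 0.0613 and 0.0630, Ptpn2 0.0580 and Ptpn6 0.0538. With 3 arrays a group and no detection call, changes at signals near background are the least certain.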
